A study of Mus musculus with 44 samples.

Results

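Recombinant TIMP2 was compared with its vehicle in tumour-bearing lungs of mice that carry a mutant Timp2 gene, across all genes of the intratracheal table. The comparison takes the 5 libraries titled MT2 + T2 and the 5 titled MT2 HBSS, 10 of the 44 samples of the series. The rTIMP2 lungs came from C57BL6j mice of the genotype mutant Timp2 that were instilled with LL/2-Luc2 cells into the trachea and dosed daily with recombinant human TIMP2 at 200 µg per kg by intraperitoneal injection. The HBSS lungs came from mice of the same strain and genotype, instilled with the same cells and labelled as HBSS tumour controls. LL/2-Luc2 is a luciferase-expressing derivative of the Lewis lung carcinoma, and each mouse received 1 M (mega) cells in 50 µL. The 5 tumour-free MT2 lungs are given as background, and the wild-type (WT) tumour lungs, 5 with rTIMP2 and 5 with HBSS, serve only for the test of the difference between genotypes. The labels give neither the nature of the Timp2 mutation, nor the day on which dosing of the intratracheal mice began, nor sex or age. They do not state that every library is a separate animal, so p-values measure the spread between these samples. Each library was made from polyA RNA of a lung piece of about 3 mm3, so host RNA and RNA of the instilled cells are mixed in it, and fewer cells of a type cannot be told apart from less RNA per cell.

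TIMP2 is a secreted protein that binds and inhibits matrix metalloproteinases, takes part with MMP14 in the activation of pro-MMP2 at the cell surface, and also binds cell-surface integrin without inhibiting a protease. Lung tumours grow among alveolar epithelium, dense capillaries and resident immune cells. Antigen-presenting cells in the lung display peptides on MHC class II molecules, whose genes are switched on by the co-activator CIITA, and CD103+ dendritic cells carry tumour antigen to T cells. The gene symbol Mt2 below stands for metallothionein 2 and has no link with the genotype label MT2.

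Values are normalized counts as deposited, 1 per gene and library, at an estimated depth of 11.11 to 17.09 M reads per library, so that a value near 1 stands for about 1 read. Of 26940 genes in the table, 16248 reached a value of 10 in at least 5 of the 10 libraries and were tested with limma on log2(value + 1), with Benjamini-Hochberg adjustment over all genes tested and a threshold of 0.05. Log2 fold changes are rTIMP2 over HBSS on that scale, which understates the change of low genes.

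One rTIMP2 library stood apart from the other 9 tumour lungs. Rhox5, a homeobox gene of germline and tumour cells, was at 2744, 48.2, 2670, 2762 and 2802 in rTIMP2 replicates 1 to 5, against 4176, 2662, 2398, 2848 and 3989 in the HBSS lungs. Replicate 2 thus had little tumour transcript, while the other 4 rTIMP2 lungs lay within the range of the HBSS lungs for Rhox5. Summed over the list of tumour cell transcripts, rTIMP2 replicates 1 to 5 came to 21713, 5069, 17952, 28051 and 22755, against 23242 to 34629 in the HBSS lungs and 4375 to 4915 in the tumour-free lungs, so that replicates 1, 3 and 5 were also below the HBSS range. The luciferase reporter, named Luc in the table, was at 0.983 in replicate 2, at 37.9 to 75.5 in the other rTIMP2 lungs, at 47.6 to 70.9 in the HBSS lungs and at 0 in the tumour-free lungs. Across genes, the log values of replicate 2 correlated with the mean of the tumour-free MT2 lungs at r = 0.98, against 0.73 to 0.80 for the other rTIMP2 lungs and 0.65 to 0.81 for the HBSS lungs. These r are descriptions across genes, which are not independent replicates. Replicate 2 also had the Y-linked RNA helicase gene Ddx3y at 1265 and the X-inactivation RNA Xist at 119, where the other rTIMP2 lungs had Ddx3y at 234 to 580 and Xist at 1778 to 4843. The HBSS lungs had Ddx3y at 123 to 525 and Xist at 1153 to 8305. In the tumour-free lungs Ddx3y was at 0.91 to 2.72, so every rTIMP2 and HBSS lung, and not only replicate 2, was far above them in this gene. Xist averaged 5372 ± 801 (SD) in the tumour-free lungs. The tumour-free background thus differs from all tumour lungs in Y-linked signal, and the cause was not tested. Both genes were picked after seeing their values. In HBSS replicate 4 skeletal muscle transcripts were high, with the myosin gene Myh1 at 8982 there, at 3.87 to 180 in the remaining HBSS lungs and at 0 to 36.4 in the rTIMP2 lungs. Results that rest on rTIMP2 replicate 2 are given with and without it, and without HBSS replicate 4 limma called 1 gene, Xcr1.

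**Figure D1:**
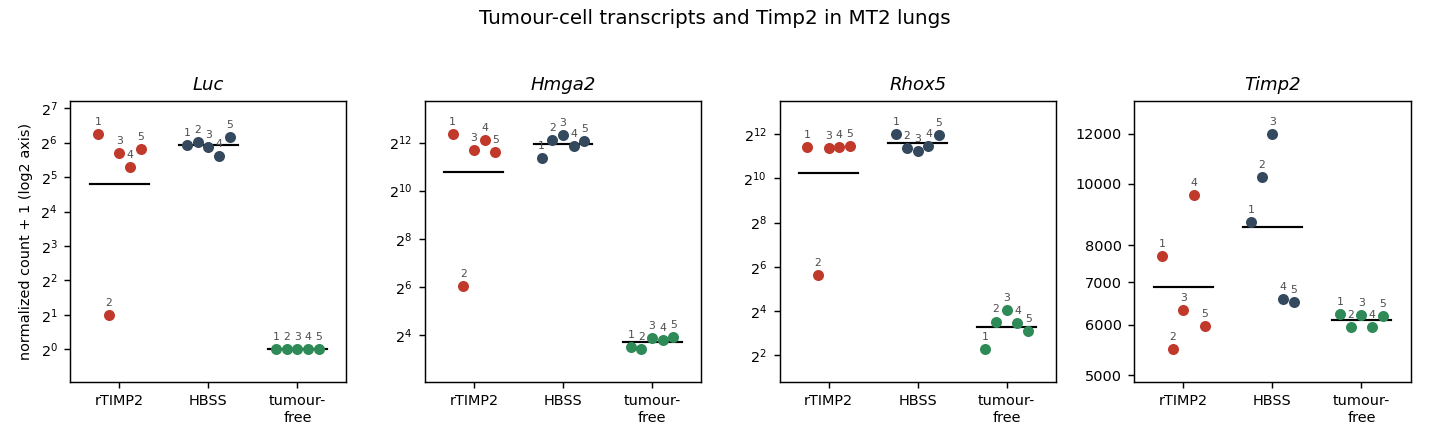
Normalized count plus 1 (log2 axis) of Luc, Hmga2, Rhox5 and Timp2 in each MT2 lung, with rTIMP2 left of HBSS and tumour-free lungs at the right; points are libraries numbered by replicate and bars are means of the log values. rTIMP2 replicate 2 had Rhox5 at 48.2 and Luc at 0.983, below the other 9 tumour lungs.

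Neither tumour marker differed past the exact test. The reporter averaged 44.1 ± 27.6 in rTIMP2 lungs and 59.8 ± 8.59 in HBSS lungs (SD, n = 5 each), with a two-sided exact permutation p of 0.25, where the smallest p that the 252 splits allow is 0.0079. Hmga2, which encodes an architectural chromatin protein found in embryos and tumours, gave an exact permutation p of 0.52. Without rTIMP2 replicate 2 the log2 fold change was -0.15 for the reporter and -0.00 for Hmga2. Leaving out rTIMP2 replicate 1, the library with the highest reporter value, brought the exact permutation p of the reporter to 0.032, with replicate 2 still in. The Timp2 gene itself, transcribed by host and by instilled cells, was at 7695, 5487, 6338, 9597 and 5979 in the rTIMP2 lungs, against 8697, 10259.8, 11992, 6582 and 6512 in the HBSS lungs. The groups overlapped (log2 -0.32 ± 0.25 SE, limma adjusted p = 0.66), and the injected protein is human and gives no mouse transcript.

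Across the transcriptome limma called 0 of 16248 genes at an adjusted p under 0.05, and 0 with voom weights. At an unadjusted p under 0.05 it had 1559 genes, 9.6% of those tested, with 999 (6.15%) higher and 560 (3.45%) lower in rTIMP2 lungs. The smallest adjusted p was 0.053, for Itgae. No gene is therefore said to have risen or fallen in this comparison. In 181 genes (1.11%) every rTIMP2 lung was above every HBSS lung, and in 156 genes (0.96%) every rTIMP2 lung was below. Without rTIMP2 replicate 2 these counts were 317 (1.95%) and 234 (1.44%), an alternative added after the values were seen. Over all 26940 genes of the table, without a filter on low values, they were 287 (1.07%) and 198 (0.735%). The count of calls differed between fits. When the WT tumour lungs shared 1 fit with the MT2 lungs, which also widened the set tested to 17841 genes, 22 (0.123%) were called, 18 (0.101%) higher and 4 (0.0224%) lower. With all 6 intratracheal groups in 1 fit 661 of 18369 genes (3.6%) were called, 498 (2.71%) higher and 163 (0.887%) lower. Library weights led to 468 calls (2.88%), 312 higher (1.92%) and 156 lower (0.96%). The lowest weight in each group was 0.158 for rTIMP2 replicate 2 and 0.272 for HBSS replicate 5. Leaving out either of these libraries alone gave 0 calls. The genes described below are those with no overlap between the groups and the smallest unadjusted p in each direction, and members of the lists.

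**Figure D2:**
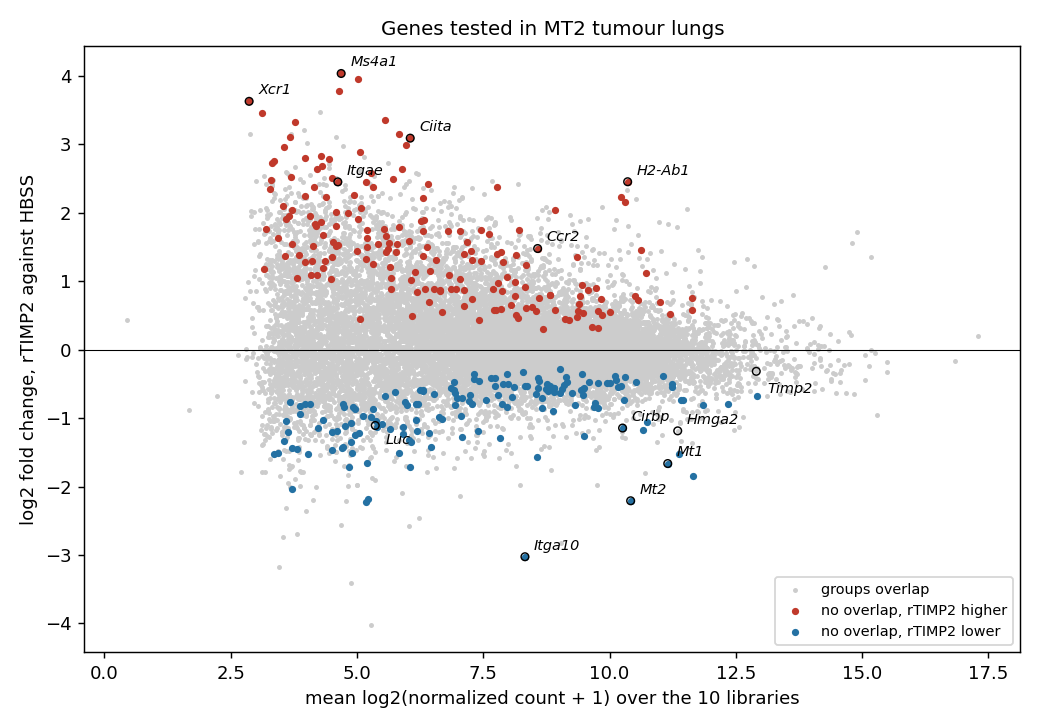
Log2 fold change (rTIMP2 over HBSS) against mean log2(normalized count + 1) over the 10 MT2 tumour libraries, 1 point per gene tested. Red points are the 181 genes with every rTIMP2 lung above every HBSS lung, blue points the 156 with every one below, and ringed points are genes named in the text; Itgae, Ciita, Xcr1 and Ms4a1 lie among the red and Mt1, Mt2, Itga10 and Cirbp among the blue.

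Most MHC class II genes had higher values in the rTIMP2 lungs than in the HBSS lungs. In 7 of 9 genes of the class II list the groups did not overlap, against 1.11% of all genes tested, and without rTIMP2 replicate 2 it was again 7, against 1.95%. Of the 8 members that reached 10 in an HBSS lung, 6 did not overlap, with and without replicate 2, since H2-Oa was tested only through its rTIMP2 values. The median log2 fold change of the 9 genes was 2.16, against 0.027 over all genes, and 1.92 against 0.064 without replicate 2. No member passed the threshold. At an unadjusted p under 0.05, 8 had higher values, against 6.15% of all genes. The same held for 11 of 14 tested T cell markers and 8 of 11 tested motile cilia markers. Ciita, the co-activator that switches on class II genes, was at 88.3, 489, 130, 144 and 330 in rTIMP2 replicates 1 to 5, against 15.3, 12.9, 24.2, 40 and 25 in the HBSS lungs. Every rTIMP2 value was above every HBSS value, and rTIMP2 replicates 2 and 5 were highest. Its log2 fold change was 3.09 ± 0.50 (SE, limma adjusted p = 0.18), and 2.76 without replicate 2. With the 4 tumour groups in 1 fit Ciita was called at an adjusted p of 0.038.

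H2-Ab1, the beta chain of the class II molecule I-A, was at 1891, 5013, 2428, 2235 and 5325 in the rTIMP2 lungs, against 352, 163, 959, 1120 and 884 in the HBSS lungs (log2 2.46 ± 0.53, adjusted p = 0.27). Its partner H2-Aa, the alpha chain, was at 1743, 5153, 1807, 2062 and 4024 in the rTIMP2 lungs, against 366, 174, 1263, 1304 and 719 in the HBSS lungs (log2 2.16 ± 0.55). The beta chain gene of the second class II molecule, H2-Eb1, had a log2 fold change of 2.23 ± 0.54. All 3 had the lowest HBSS values in replicates 1 and 2. The peptide-loading subunits followed the same order, with H2-DMa at 322 to 719 in rTIMP2 lungs and 96.9 to 237 in HBSS lungs, and H2-DMb1 at 358 to 754 in rTIMP2 lungs and 63.4 to 283 in HBSS lungs. H2-Oa, a subunit of the modulator of that loading step, was at 15.7 to 94.3 in rTIMP2 lungs and 2.15 to 8.35 in HBSS lungs (log2 2.80 ± 0.55). H2-Ob, its partner subunit and no member of the list, was at 53.4 to 581 in rTIMP2 lungs and 8.7 to 29.5 in HBSS lungs (log2 3.36 ± 0.61, adjusted p = 0.21). Cd74, the invariant chain that escorts class II molecules, overlapped between the groups, at 2686 to 15089 in rTIMP2 lungs and 508 to 3061 in HBSS lungs. Ctss, the protease that trims the invariant chain, was at 1624 to 6070 in rTIMP2 lungs and 3053 to 6755 in HBSS lungs (log2 -0.15 ± 0.35), with a log2 fold change of 0.15 without replicate 2. Summed over the list, the class II genes came to 13151 to 33157 in rTIMP2 lungs, 4241 to 12831 in HBSS lungs and 28081 to 45229 in tumour-free MT2 lungs. The rTIMP2 lungs thus lay between the HBSS and the tumour-free lungs, with replicates 2 and 5 reaching the tumour-free range.

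**Figure D3:**
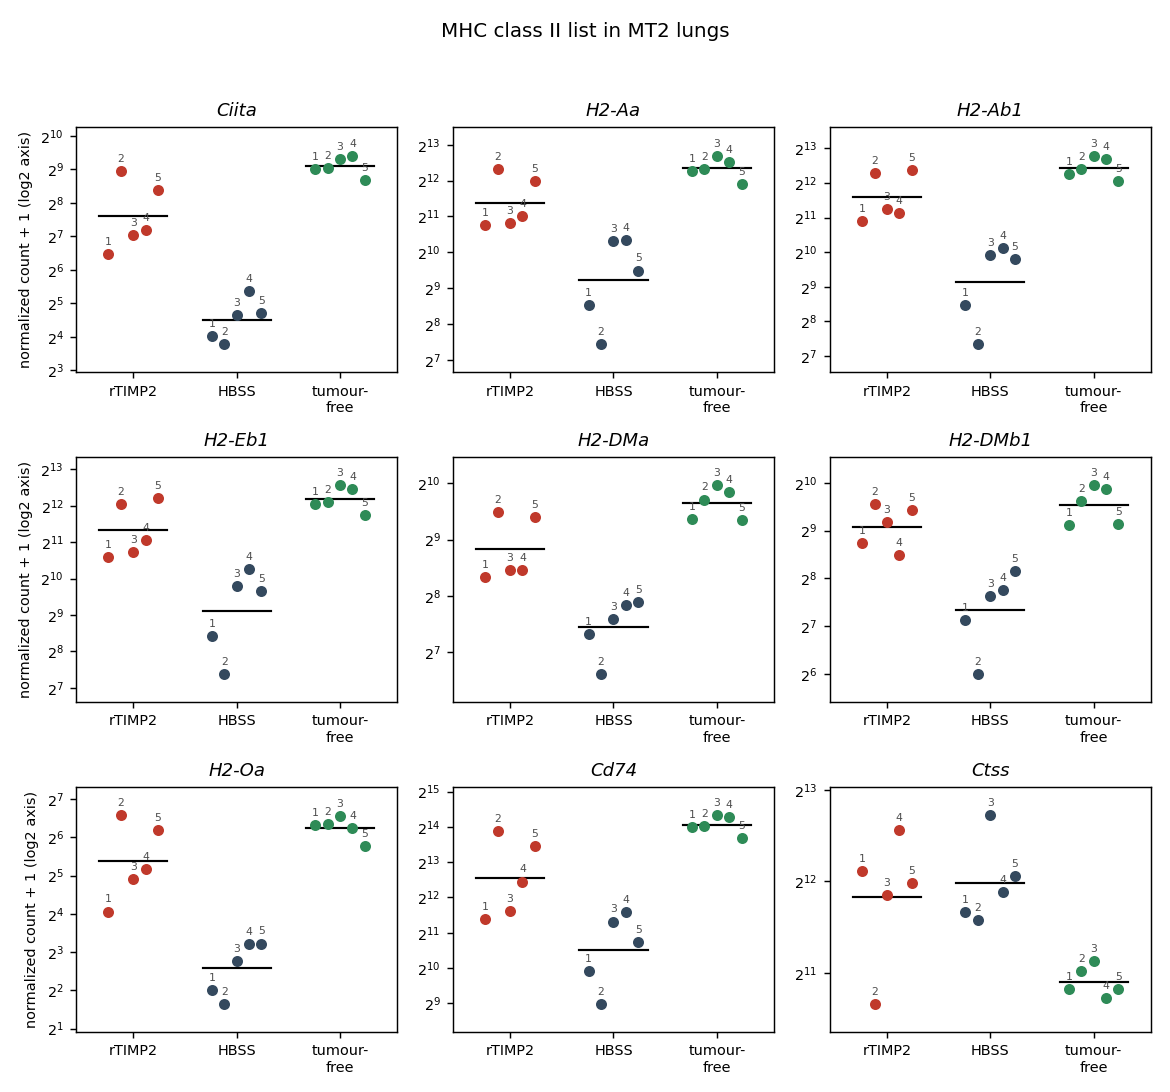
Normalized count plus 1 (log2 axis) of the 9 genes of the MHC class II list in each MT2 lung, rTIMP2 left of HBSS and tumour-free lungs at the right; points are libraries numbered by replicate and bars are means of the log values. The 5 rTIMP2 lungs lie above the 5 HBSS lungs in 7 of the 9 panels and overlap them for Cd74 and Ctss.

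Class II promoters are known for a conserved X box and an inverted CCAAT element, on which the complex that recruits CIITA assembles. Windows of 250 bases before to 50 after the gene start (RefSeq promoters, GRCm38.p6) were searched on both strands for AGNAAC followed at once by NGATG, taken as the X box (N is any base), and for CCAAT. Of 7 windows belonging to 6 genes of the class II list, 2 held the X box, against 98 of 32851 windows (0.298%) of all genes, and 5 held CCAAT, against 37.4% of all. The windows with an X box belong to H2-Eb1 and H2-DMb1 and are shown because both genes were without overlap between the groups, with the X box and CCAAT (or its reverse complement ATTGG) in capitals. The motifs do not overlap each other there.
H2-Eb1, chr17:34305617-34305916, + strand: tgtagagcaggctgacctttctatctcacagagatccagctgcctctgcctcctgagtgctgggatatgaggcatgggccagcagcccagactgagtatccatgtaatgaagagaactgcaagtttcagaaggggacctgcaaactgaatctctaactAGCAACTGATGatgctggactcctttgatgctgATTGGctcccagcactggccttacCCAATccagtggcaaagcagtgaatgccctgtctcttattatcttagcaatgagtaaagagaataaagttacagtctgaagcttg
H2-DMb1, chr17:34152941-34153240, + strand: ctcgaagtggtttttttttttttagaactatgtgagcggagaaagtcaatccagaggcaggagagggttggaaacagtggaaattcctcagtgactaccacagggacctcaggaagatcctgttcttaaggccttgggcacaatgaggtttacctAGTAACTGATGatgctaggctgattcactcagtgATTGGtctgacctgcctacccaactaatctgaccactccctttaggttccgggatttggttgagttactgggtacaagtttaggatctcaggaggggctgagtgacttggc
In both windows the X box comes first and an ATTGG follows it downstream. A match is a string of letters, not a measured binding site.

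Dendritic cell markers were mixed, and no member passed the threshold. In 4 of 10 tested markers (12 listed) the groups did not overlap, namely Itgae, Xcr1, Ccr7 and Irf8, against 1.11% of all genes. Of the 9 that reached 10 in an HBSS lung, which leaves out Xcr1, 3 did not overlap, and 3 again without rTIMP2 replicate 2. The other 6 tested markers overlapped, and 9 of 10 had a log2 fold change above 0, against 52.4% of all genes. The summed level of the list, which weighs abundant members most, overlapped. It was at 2819 to 7567 in rTIMP2 lungs, 3483 to 8158 in HBSS lungs and 2901 to 3595 in tumour-free lungs. The mean log2(value + 1) of the tested members, minus its tumour-free mean, was -1.02 to -0.22 in rTIMP2 lungs and -2.54 to -1.16 in HBSS lungs. That mean includes Xcr1 and weighs all tested members alike. Itgae encodes the alpha chain of the integrin CD103, carried by a dendritic cell subset and by T cells resident in epithelium. It was at 57.9, 71.8, 47.1, 53.4 and 55.3 in the rTIMP2 lungs, against 8.17, 8.6, 9.66, 11.4 and 10 in the HBSS lungs. Values were tight within each group, and the tumour-free lungs were higher still at 92.8 to 112. The log2 fold change was 2.45 ± 0.30 (SE, limma unadjusted p = 3.2e-06, adjusted p = 0.053), and 2.37 without replicate 2. Itgae passed the threshold with a pseudocount of 5 and with the 4 tumour groups in 1 fit (adjusted p = 0.0018). Xcr1, a chemokine receptor of cross-presenting dendritic cells, was at 15.7, 41.3, 19.8, 26.2 and 26.6 in the rTIMP2 lungs, against 0, 0, 0.966, 9.51 and 0.835 in the HBSS lungs (adjusted p = 0.21). It was tested only because the rTIMP2 lungs reach 10, and its HBSS values are a few reads at most outside replicate 4. Xcr1 was also called with the 4 tumour groups in 1 fit (adjusted p = 0.017), and its adjusted p ran from 9.9e-05 to 0.69 over the alternatives run. Ccr7, the receptor that guides dendritic cells to lymph nodes, was at 93.2 to 405 in rTIMP2 lungs and 9.19 to 80.9 in HBSS lungs. Irf8, a transcription factor of dendritic cells and monocytes, was at 409 to 829 in rTIMP2 lungs and 315 to 383 in HBSS lungs. The broad dendritic genes Flt3, a growth factor receptor (log2 0.65 ± 0.38), and Zbtb46, a transcription factor (log2 0.91 ± 0.56), overlapped between the groups.

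Lymphocyte markers had the same direction. Of 14 T cell markers tested (15 listed) all 14 had a log2 fold change above 0, against 52.4% of all genes, with a median of 1.73, and 1.40 without rTIMP2 replicate 2. No overlap was found for 2 of them, against 1.11% of all genes. Lck, the kinase that starts T cell receptor signalling, was at 49, 216, 75.4, 54.4 and 132 in the rTIMP2 lungs, against 10.2, 7.53, 20.3, 30.4 and 24.2 in the HBSS lungs (log2 2.38 ± 0.51, adjusted p = 0.27). Cd3d, a chain of the T cell receptor complex, was at 16.7 to 96.3 in rTIMP2 lungs and 3.23 to 16.2 in HBSS lungs, and Cd3e, another chain, overlapped at 15.1 to 96.3 in rTIMP2 lungs and 3.06 to 19 in HBSS lungs. For both chains HBSS replicate 4 was the HBSS lung closest to the rTIMP2 lungs. Klrk1, the activating receptor NKG2D of natural killer and cytotoxic T cells, was at 38.3, 129, 46.2, 31.1 and 77.8 in the rTIMP2 lungs, against 7.15, 3.23, 11.6, 12.4 and 5.84 in the HBSS lungs (log2 2.78 ± 0.49, adjusted p = 0.19). The rest of the natural killer and cytotoxic list was sparse, with 8 of 12 members too low to be tested. Gzmb, the effector protease granzyme B, was at 8.83 to 67.8 in rTIMP2 lungs and 0 to 12.6 in HBSS lungs. P2ry10, a receptor gene of lymphocytes on the X chromosome, was at 76.7 to 349 in rTIMP2 lungs and 7.53 to 36.7 in HBSS lungs (log2 3.00 ± 0.51, adjusted p = 0.18).

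B cell markers had higher values in the rTIMP2 lungs, which varied widely among themselves, and none passed the threshold. Ms4a1, which encodes the B cell antigen CD20, was at 51, 439, 77.3, 31.1 and 214 in the rTIMP2 lungs, against 7.15, 4.3, 0.966, 13.3 and 7.51 in the HBSS lungs. The groups did not overlap, and the tumour-free lungs had 228 to 421, a range that rTIMP2 replicate 2 exceeded and replicate 5 nearly reached. Its log2 fold change was 4.04 ± 0.75 (adjusted p = 0.21), and 3.52 without replicate 2. Cd79a, a signalling chain of the B cell receptor, was at 67 to 753 in rTIMP2 lungs and 8.7 to 48.5 in HBSS lungs. Of 9 tested markers (11 listed), 3 did not overlap (Cd79a, Ms4a1 and Cd22), against 1.11% of all genes, and 3 again without replicate 2, against 1.95%. All 9 had a log2 fold change above 0, against 52.4% of all genes. Each of the 9 reached 10 in at least 1 HBSS lung.

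Class I, interferon and checkpoint genes had smaller median log2 fold changes than class II genes. All 11 genes of class I and antigen processing had a log2 fold change above 0, against 52.4% of all genes. Their median was 0.67, and 0.53 without rTIMP2 replicate 2. Only Erap1 was without overlap, against 1.11% of all genes. Erap1, the aminopeptidase that trims peptides in the endoplasmic reticulum, was at 723 to 1062 in rTIMP2 lungs and 430 to 707 in HBSS lungs. H2-K1, a classical class I heavy chain, overlapped (log2 0.91 ± 0.40). Of 20 type I interferon response genes 19 were above 0 (median 0.90), against 52.4% of all genes, and 17 (median 0.76) without rTIMP2 replicate 2. None was without overlap, a count near the share over all genes. Summed over this list, HBSS replicate 3 came to 18069 and the remaining HBSS lungs to 2488 to 3847, against 3557 to 9827 in rTIMP2 lungs. Ctsc, the protease that activates granzymes and neutrophil proteases, was at 2224 to 3394 in rTIMP2 lungs and 622 to 1734 in HBSS lungs (log2 1.45 ± 0.28, adjusted p = 0.23). Of 11 tested immune checkpoint genes 9 were above 0 (median 0.79) and none was without overlap, a count near the share over all genes. Without replicate 2 the median was 0.93 and 1 member, Cd80, was without overlap, against 1.95% of all genes. Btla, an inhibitory receptor of lymphocytes, was at 33 to 204 in rTIMP2 lungs and 9.19 to 48.5 in HBSS lungs. Fam167a and the transporter gene Abcg3, placed among the 10 highest by the rule, had log2 fold changes of 1.73 ± 0.28 and 2.00 ± 0.37.

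Ccr2, the chemokine receptor of inflammatory monocytes, was higher in every rTIMP2 lung than in any HBSS lung. It was at 832, 450, 916, 453 and 671 in the rTIMP2 lungs, against 218, 198, 209, 219 and 309 in the HBSS lungs (log2 1.48 ± 0.25, adjusted p = 0.18). The log2 fold change was 1.60 without replicate 2. The highest values were in rTIMP2 replicates 1, 3 and 5, above the tumour-free range of 478 to 589, and not in replicate 2. It was the single gene without overlap among 16 monocyte and interstitial macrophage markers, against 1.11% of all genes. Of the 16, 3 had higher values at an unadjusted p under 0.05, against 6.15% of all genes. Ly6c2, a surface antigen of the same monocytes, overlapped (log2 1.15 ± 0.60). The median of the 16 markers was -0.01, and 0.24 without replicate 2. There 4 members did not overlap (Ccr2, Adgre1, Cx3cr1 and Ms4a7), against 1.95% of all genes. Of 19 tested suppressive and tumour-associated myeloid genes, 0 were without overlap, a count near the share over all genes. Their median was -0.04 and 9 were above 0, against 52.4% of all genes. Without replicate 2 the median was 0.26, with 14 above 0 and 2 without overlap (Trem2 and Fabp5), against 1.95% of all genes. Arg1, the arginase of suppressive macrophages, was at 3714, 102, 2446, 1175 and 994 in the rTIMP2 lungs, against 1698, 1378, 1278, 1746 and 2600 in the HBSS lungs. The matrix protein gene Spp1 was at 1682 to 25637 in rTIMP2 lungs and 9864 to 32005 in HBSS lungs. For Arg1 and Spp1 the lowest value was replicate 2, and without it both log2 fold changes were above 0, at 0.10 for Arg1 and 0.39 for Spp1. Ccl8, a chemokine that attracts monocytes, had a log2 fold change of 1.16 ± 0.56, and 1.55 without replicate 2.

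Among the genes named as lower in the rTIMP2 lungs, the smallest unadjusted p belonged to the metallothioneins, small proteins that bind zinc and copper. Mt1 was at 1570, 754, 1471, 1340 and 1458 in the rTIMP2 lungs, against 3296, 3439, 6014, 4516 and 3539 in the HBSS lungs. Mt2 was at 947, 278, 764, 738 and 696 in the rTIMP2 lungs, against 2762, 2683, 5003, 3537 and 1670 in the HBSS lungs. The groups did not overlap for either gene, with replicate 2 the lowest of the rTIMP2 lungs, and the tumour-free MT2 lungs were lower again at 280 to 400 for Mt1 and 53.3 to 84.6 for Mt2. Log2 fold changes were -1.66 ± 0.25 for Mt1 and -2.21 ± 0.36 for Mt2 (SE, limma adjusted p = 0.18 for both), and -1.47 and -1.91 without replicate 2. With the 4 tumour groups in 1 fit both were called, at an adjusted p of 0.028 for Mt1 and 0.043 for Mt2.

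The pair lies side by side on chromosome 8 (mm10, Mt2 at 94172664 to 94173568 and Mt1 at 94179082 to 94180327, both on the forward strand). Metal response elements, the sites of the zinc-sensing factor MTF-1, share the core TGCACNC or TGCGCNC. This core, searched on both strands, was found 3 times in the RefSeq promoter window of Mt1 and 4 times in that of Mt2. In all 32851 windows, 25.7% held at least 1 core, 1.97% held 3 or more and 0.517% held 4 or more. The windows are shown because both genes had no overlap and share this element, with the core in capitals on either strand.
Mt1, chr8:94178839-94179138, + strand: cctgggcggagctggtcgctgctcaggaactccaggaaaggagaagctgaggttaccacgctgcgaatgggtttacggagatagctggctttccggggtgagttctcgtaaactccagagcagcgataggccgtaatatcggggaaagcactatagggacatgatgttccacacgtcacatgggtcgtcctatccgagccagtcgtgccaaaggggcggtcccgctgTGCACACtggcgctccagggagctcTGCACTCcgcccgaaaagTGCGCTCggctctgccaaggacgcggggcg
Mt2, chr8:94172368-94172667, + strand: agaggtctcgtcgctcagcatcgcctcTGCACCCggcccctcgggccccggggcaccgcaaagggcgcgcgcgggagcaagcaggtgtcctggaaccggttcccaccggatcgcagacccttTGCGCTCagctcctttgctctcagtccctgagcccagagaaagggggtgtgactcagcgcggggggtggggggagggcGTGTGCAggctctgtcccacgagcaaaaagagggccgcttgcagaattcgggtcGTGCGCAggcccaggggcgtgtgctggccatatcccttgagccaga
The matches do not overlap each other. They describe the letters of these windows, and binding was not measured.

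Other genes that were lower in every rTIMP2 lung had different roles. Fkbp5, a co-chaperone of the glucocorticoid receptor, was at 2755, 543, 2179, 2650 and 1590 in the rTIMP2 lungs, against 6728, 8169, 7360, 5528 and 3714 in the HBSS lungs (log2 -1.85 ± 0.42, adjusted p = 0.31). Tumour-free lungs had 246 to 562, so replicate 2 lay inside that range and the other rTIMP2 lungs lay between it and the HBSS lungs. Itga10, the alpha chain of a collagen-binding integrin, was at 208, 40.3, 123, 174 and 94.5 in the rTIMP2 lungs, against 2479, 1874, 883, 641 and 242 in the HBSS lungs (log2 -3.03 ± 0.62, adjusted p = 0.27). Its HBSS values spread over a wide range, from well above the rTIMP2 lungs to close above them. Preb, a guanine nucleotide exchange factor of the secretory pathway, was at 1107 to 1847 in rTIMP2 lungs and 2443 to 9151 in HBSS lungs (log2 -1.52 ± 0.32). Cirbp, a cold-inducible RNA-binding protein, was at 657 to 1103 in rTIMP2 lungs and 1264 to 2504 in HBSS lungs (log2 -1.14 ± 0.24). Deptor, an inhibitor of the mTOR kinase, was at 937, 1350, 877, 1266 and 1036 in the rTIMP2 lungs, against 2164, 2828, 3910, 2552 and 1428 in the HBSS lungs (log2 -1.18 ± 0.26, adjusted p = 0.28). For Deptor the rTIMP2 lungs were near the tumour-free lungs, which had 1259 to 1357. Sox4, a developmental transcription factor, Arrdc2, an arrestin-domain protein, and the zinc finger gene Zfp580 had log2 fold changes of -1.06 ± 0.23, -1.29 ± 0.25 and -1.19 ± 0.26.

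**Figure D4:**
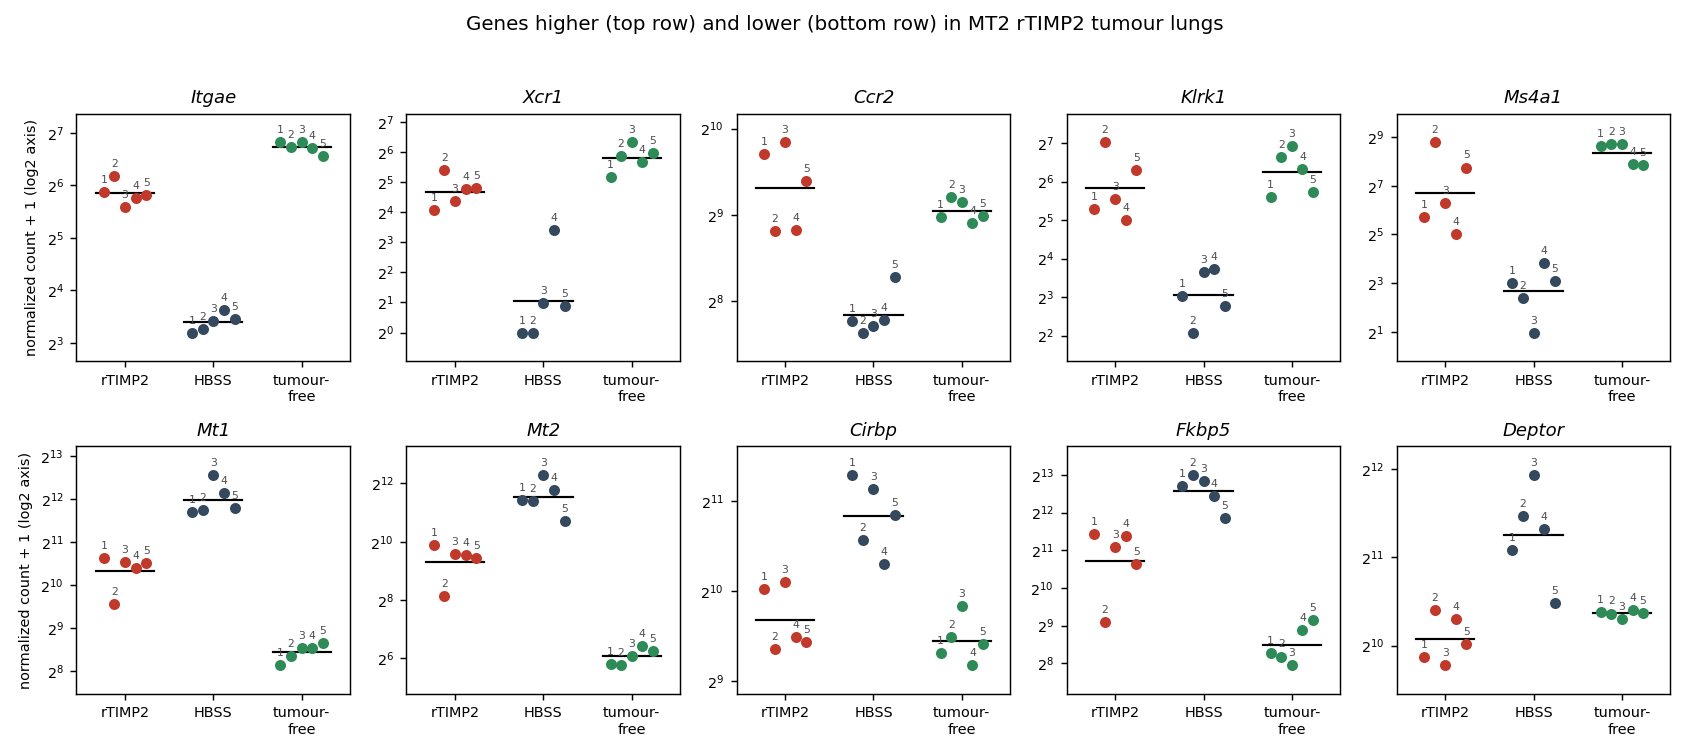
Normalized count plus 1 (log2 axis) of 5 genes that were higher (Itgae, Xcr1, Ccr2, Klrk1 and Ms4a1) and 5 that were lower (Mt1, Mt2, Cirbp, Fkbp5 and Deptor) in rTIMP2 than in HBSS lungs of MT2 mice, with tumour-free lungs at the right; points are libraries numbered by replicate and bars are means of the log values. In all 10 panels the 5 rTIMP2 lungs do not overlap the 5 HBSS lungs.

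In the system in which TIMP2 acts 0 members were without overlap, where 1.11% (higher) and 0.96% (lower) of all genes were, so that a count of 0 is near the share over all genes. Of the inhibitors, Timp1, which binds most metalloproteinases, was at 332, 220, 419, 312 and 518 in the rTIMP2 lungs, against 274, 186, 247, 312 and 536 in the HBSS lungs. The ranges nearly coincide (log2 0.25 ± 0.31, adjusted p = 0.79). Timp3, the inhibitor held in the matrix, was at 1346 to 2589 in 4 rTIMP2 lungs and at 16914 in replicate 2, against 517 to 4685 in HBSS lungs. Reck, a membrane-anchored inhibitor, had the same pattern, with 1083 in replicate 2. Of 13 tested metalloproteinases (19 listed), 0 were without overlap. Mmp14, the membrane protease that TIMP2 links to pro-MMP2, was at 4018, 639, 4667, 6420 and 5268 in the rTIMP2 lungs, against 5701, 9776, 8393, 5293 and 3705 in the HBSS lungs (log2 -0.90 ± 0.56, and -0.31 without replicate 2). Mmp2, its gelatinase target, had a log2 fold change of 0.83 ± 0.51, and 0.39 without replicate 2. At an unadjusted p under 0.05 the list had 1 member with higher values, against 6.15% of all genes, and 2 with lower values, against 3.45%. The higher one was Mmp25, a membrane protease of leukocytes (log2 1.45 ± 0.61, unadjusted p = 0.034, adjusted p = 0.49). The lower ones, named after their values were seen, were Mmp19 (log2 -0.74 ± 0.32, unadjusted p = 0.04, adjusted p = 0.51) and Mmp11 (log2 -0.46 ± 0.21, unadjusted p = 0.049, adjusted p = 0.52), both with overlapping groups. Of 11 partners and receptors of TIMP2, 0 were without overlap. Ptpn6, the phosphatase SHP-1 that TIMP2 recruits in endothelial cells, was at 386, 750, 518, 657 and 791 in the rTIMP2 lungs, against 321, 374, 368, 440 and 373 in the HBSS lungs (log2 0.68 ± 0.22, adjusted p = 0.44), with replicate 1 alone inside the HBSS range. Itgb1, the integrin beta chain of the TIMP2 receptor on those cells, had a log2 fold change of 0.23 ± 0.21. None of the 14 ADAM and ADAMTS proteases, 8 plasminogen activation genes or 24 collagens and matrix assembly genes was without overlap, with list medians of 0.11, 0.04 and -0.04. Without replicate 2 the medians were 0.19, 0.34 and 0.15. There 1 collagen-list member, Serpinh1, was without overlap, with higher values in rTIMP2 lungs, against 1.95% of all genes.

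The tumour and growth lists depended on rTIMP2 replicate 2. The median log2 fold change of 15 tested tumour cell transcripts was -1.03 with all libraries and -0.19 without replicate 2. With all libraries 0 were without overlap, a count near the share over all genes. Without replicate 2 it was 1, Lrrc15, with higher values in rTIMP2 lungs, against 1.95% of all genes. Peg3, an imprinted gene, had the smallest unadjusted p of the list (0.016), at 217 to 328 in rTIMP2 lungs and 194 to 957 in HBSS lungs. The proliferation list of 30 genes had a median of -0.22, with 7 above 0, and of 0.36 without replicate 2, with 26 above 0. Mki67, which marks cycling cells, was at 884, 282, 844, 2114 and 2133 in the rTIMP2 lungs, against 2795, 2324, 1166, 1810 and 230 in the HBSS lungs, with wide overlap (log2 -0.35 ± 0.71, and 0.11 without replicate 2). With all libraries 1 member of that list, Ccnd1, was without overlap, against 1.11% of all genes. Without replicate 2 there were 5, all with higher values in rTIMP2 lungs (Bub1, Mcm5, Rrm2, Tyms and Ccnd1), against 1.95% of all genes. Ccnd1, cyclin D1, was at 3346, 3300, 3086, 5394 and 4864 in the rTIMP2 lungs, against 2423, 2928, 2123, 2807 and 2779 in the HBSS lungs. Its groups did not overlap, at a log2 fold change of 0.59 ± 0.21 (adjusted p = 0.49), and the tumour-free lungs had 4204 to 4774. The 21 hypoxia and glycolysis genes had a median of -0.09, and 0.09 without replicate 2. None was without overlap, a count near the share over all genes.

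Markers of the lung's own epithelium and vessels also had mostly higher mean values in the rTIMP2 lungs, with the groups overlapping for each marker. All 14 alveolar type 2 cell markers had a log2 fold change above 0, against 52.4% of all genes, with a median of 1.28, and 0.92 without replicate 2. None of the 14 was without overlap, against 1.11% (higher) of all genes, so that a count of 0 is near that share. Their summed level was 45950.3 to 112711 in 4 rTIMP2 lungs and 312937 in replicate 2, against 10494 to 155968 in HBSS lungs and 360585 to 414491 in tumour-free lungs. Sftpc, surfactant protein C and the defining transcript of these cells, was present in all 10 tumour lungs and was at 21896, 164672, 66999, 28226 and 42964 in the rTIMP2 lungs, against 4598, 6542, 11249, 39572 and 97273 in the HBSS lungs. HBSS replicates 1 and 2 were lowest for Sftpc, as they were for class II genes. Club cells, motile cilia and alveolar type 1 cells had 11 of 11 tested markers above 0 each, with medians of 1.72, 1.95 and 1.40. Without replicate 2 the medians were 1.08, 1.27 and 0.79, and 10 of the 11 alveolar type 1 markers were above 0. Endothelial markers had 19 of 20 above 0 at a median of 0.84, which came to 15 of 20 at 0.30 without replicate 2. Cdh5, the cadherin of vessels, was at 666 to 1518 in 4 rTIMP2 lungs and 9799 in replicate 2, against 588 to 1756 in HBSS lungs. These lists and the immune lists ran in the same direction, and the part that the share of lung tissue has in the immune differences was not tested.

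**Figure D5:**
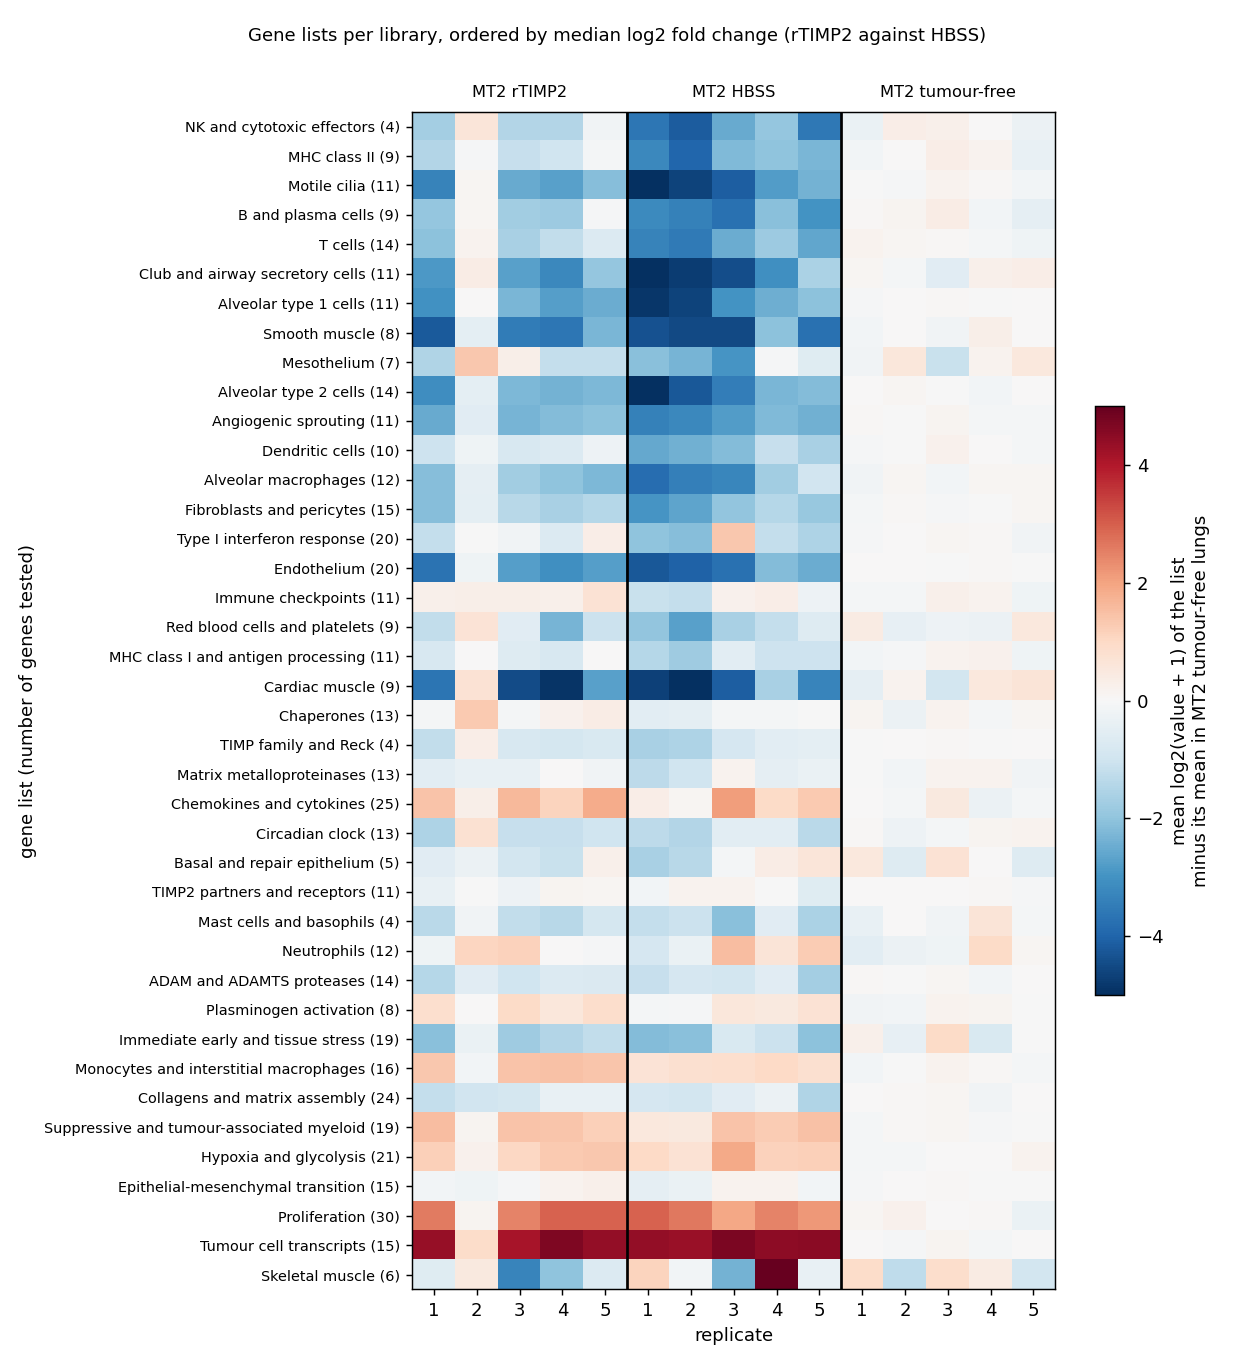
Mean log2(value + 1) of each gene list drawn, per library, minus its mean in the MT2 tumour-free lungs (colour, blue below and red above), for rTIMP2, HBSS and tumour-free lungs; rows are lists ordered by median log2 fold change with the number of genes tested. The lists of sex chromosome, mitochondrially encoded, adipose tissue, thymus and lymph node, and cell death and complement genes are not drawn. rTIMP2 replicate 2 is close to the tumour-free lungs in many lists but not, for example, in mesothelium (1.34) or chaperones (1.32). The class II score is -1.45 to -0.07 in rTIMP2 lungs, with all 5 HBSS lungs below that range.

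Chaperones and stress genes were uneven. Hspa1a, an inducible chaperone, was at 7569 in rTIMP2 replicate 2, at 83 to 326 in the other rTIMP2 lungs and at 54.2 to 182 in HBSS lungs. Its near-identical neighbour Hspa1b may share reads with it, so its own value is uncertain. Chordc1, a co-chaperone of HSP90, was at 1151, 1372, 893, 796 and 1095 in the rTIMP2 lungs, against 561, 669, 485, 643 and 841 in the HBSS lungs (log2 0.73 ± 0.21, adjusted p = 0.43). Only rTIMP2 replicate 4 was below the highest HBSS lung, which was replicate 5. None of 13 chaperones and none of 19 immediate early and stress genes was without overlap, near the share over all genes. Without replicate 2 the chaperone Hspa8 was without overlap, with higher values in rTIMP2 lungs, against 1.95% of all genes.

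Whether the rTIMP2 difference depended on the Timp2 genotype was tested as an interaction over 20 tumour libraries, the MT2 log2 fold change minus the WT one. Limma called 0 of 17841 genes, and 1053 (5.9%) had an unadjusted p under 0.05. Voom weights gave 0 calls as well, while library weights gave 8147. Luc averaged 18.2 ± 29.5 in the WT rTIMP2 lungs and 51.1 ± 11.9 in the WT HBSS lungs (SD, n = 5 each), so this contrast also compares lungs with and without much tumour RNA. For the metallothioneins the difference was 0.10 ± 0.38 for Mt1 and 0.22 ± 0.59 for Mt2 (unadjusted p = 0.8 and 0.72). In WT lungs Mt1 was at 584, 752, 1182, 1199.7 and 507 with rTIMP2, against 2635, 2194, 3363, 2128 and 3420.1 with HBSS, again without overlap. H2-Ab1 had a positive difference of 1.09 ± 0.70 (adjusted p = 0.67), with WT means of 5562 in rTIMP2 lungs and 2505 in HBSS lungs against MT2 means of 3379 in rTIMP2 lungs and 696 in HBSS lungs. For Itgae the difference was 1.00 ± 0.42 (unadjusted p = 0.028, adjusted p = 0.67), and for Ccr2 it was 1.26 ± 0.45. The WT lungs overlapped for Ccr2, at 351 to 1188 with rTIMP2 and 268 to 757 with HBSS.

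The genes of smallest unadjusted p in the interaction lay in both directions. Arrdc2 was at 114 to 219 in MT2 rTIMP2 lungs and 281 to 528 in MT2 HBSS lungs, and at 132 to 317 in WT rTIMP2 lungs and 120 to 217 in WT HBSS lungs. Its difference was -1.65 ± 0.37 (unadjusted p = 0.00023, adjusted p = 0.67). Deptor had a difference of -1.13 ± 0.33, with overlapping WT groups. Sesn1, a stress-induced regulator of mTOR signalling, had -1.15 ± 0.30, and Dpm1, a subunit of dolichol-phosphate mannose synthase, -1.10 ± 0.29. The transcription factor gene Tcf23 had -3.64 ± 0.91. On the other side, Slc16a3, the lactate exporter MCT4, was at 335 to 559 in MT2 rTIMP2 lungs and 162 to 361 in MT2 HBSS lungs, and at 241 to 558 in WT rTIMP2 lungs and 526 to 864 in WT HBSS lungs (difference 1.68 ± 0.35). The paired receptor gene Pilra, Cd300ld and Cd300lb, receptors of myeloid cells, had differences of 1.46 ± 0.34, 2.29 ± 0.55 and 1.66 ± 0.41. Apln, the apelin ligand of endothelial tip cells, had 1.61 ± 0.39. None of these 10 passed the threshold, and each has an adjusted p of 0.67.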

How the data were processed

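Per the labels, the 10 libraries compared are polyA RNA of lung pieces. The authors deposited 1 table of normalized counts per gene for the 30 intratracheal libraries, a normalized signal rather than raw counts. Per the submitters' processing notes, Partek, STAR, Bowtie2 and DESeq2 were used with genome build mm10; their roles and versions, the annotation and the strand of counting are not given in the sources used, so overlapping antisense genes and near-identical copies cannot be told apart. Gene coordinates are those of GENCODE M21, taken by gene identifier. Of the identifiers shared with the deposited values, 99.1% have the same coordinates there, after allowing for a constant offset of the end position. In each library low values come in even steps, and 85.8 to 87.7% of them were whole multiples within 0.02 of a step, too few to recover reads, so no count model was fitted. The step gave an estimated depth of 11.11 to 17.09 M reads per library, with 4.99 to 7.73% of a library in its top 10 genes.

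Groups came from the sample titles, because the treatment field of the treated lungs counts upward through names that begin with Timp. Genes that reached 10 in 5 libraries or more were tested with limma 3.58.1 (lmFit, eBayes with trend and robust options) in R 4.3.3 on log2(value + 1), with only the groups compared in the fit. The genotype interaction was fitted over the 20 tumour libraries. P-values are two-sided and adjusted by the Benjamini-Hochberg method over all genes tested. Luc and Hmga2 had exact permutation tests. The functions were tested on simulated data first.

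Named genes were Timp2, Luc and Hmga2; then, in each direction, the 10 genes (5 for the interaction) of smallest unadjusted p among those without overlap between groups and averaging at least 50 in the group with the higher values, since no gene passed the threshold; and members of 45 lists (587 genes; 1 more listed gene is not reported here). Numbered gene models, pseudogenes, receptor segments and repeated names were left out. The members, lists and rules were chosen with earlier results of these data known. Other scalings, pseudocounts, filters, voom, library weights, shared fits, a replicate block and leaving out each library were tried. The subcutaneous table was not used here, and sex and tumour content were not fitted as covariates.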

Additional observations from a re-analysis of the deposited data

Results flagged for a closer look

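In groups of 5 libraries, a value was set aside for a closer look where the gap between the highest or lowest library and its neighbour exceeded 0.71 of the group's range. Over 156 checks of a named gene in a group, 24 met this. Chance gives about 1 in 20 for independent, normally distributed values. These checks share the same libraries, so the 24 cannot be set against that rate. No explanation was weighed.

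Of the 24 values, 12 are from rTIMP2 replicate 2, the library with little tumour transcript, and 12 from HBSS lungs. Replicate 2 was the highest rTIMP2 lung for markers of normal lung, with Scgb1a1 of club cells at 316621, the vessel cadherin Cdh5 at 9799, the cilia factor Foxj1 at 2499 and Siglecf of alveolar macrophages at 120. It was also the highest for the inhibitors Timp3 (16914) and Reck (1083), for Mmp2 (807), for the dendritic factor Zbtb46 (445), for the chaperone Hspa1a (7569) and for Arrdc2 (219). It was the lowest rTIMP2 lung for Rhox5 (48.2) and Mt1 (754).

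HBSS replicate 4 was the highest HBSS lung for lymphocyte genes, with Cd3e at 19, Cd79a at 48.5, Cd22 at 70.4 and Btla at 48.5. It was likewise the highest for Xcr1 (9.51), Cdh5 (1756) and the skeletal muscle myosin Myh1 (8982).

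HBSS replicate 5 was the highest HBSS lung for Ccr2 (309), Spp1 (32005) and Siglecf (40.1). HBSS replicate 1 was the highest for Zfp580 (361), and HBSS replicate 3 for Mmp25 (27.1).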

How the results depend on the processing

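The count of genes called between rTIMP2 and HBSS in MT2 lungs was 0 in the reported fit. It was 1 with a pseudocount of 5, 22 with the 4 tumour groups in 1 fit, 661 with all 6 intratracheal groups in 1 fit and 468 with library weights. Leaving out 1 library gave 0 to 1 calls, the 1 being Xcr1 without HBSS replicate 4, and every other alternative run gave 0. The interaction had 8147 calls with library weights and 0 in the others. Genes without overlap numbered 181 higher in the reported set, 317 without rTIMP2 replicate 2 and 287 over all genes of the table. The exact permutation p of Luc, 0.25, ran from 0.032 (without rTIMP2 replicate 1) to 0.55 when 1 library was left out. Of 1667 alternative log2 fold changes of 78 named genes, 1557 kept their direction and side of the threshold, 102 passed it, 0 lost a call and 8 changed sign, all in genes that were not called. Those were Ctss (0.27 with library weights, -0.33 to 0.15 when 1 library was left out), Spp1 (0.44 and -0.59 to 0.39), Arg1 (-1.19 to 0.10) and Mki67 (-0.96 to 0.11). The cause was not tested. A block for the replicate number gave 0 calls. Deviations of same-numbered libraries correlated at 0.31, -0.33, -0.08, -0.29 and -0.21 for numbers 1 to 5. Only for number 1 was the same-numbered library the best match. These r cannot decide whether the numbers pair the libraries, because genes are not independent replicates. Markers under a value of 10 rest on about 10 reads or fewer. The spread set by rTIMP2 replicate 2, the unstated sex of the mice and the tumour share of each piece limit the comparison.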

Other observations

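Markers of other tissues that a lung piece can carry gave no member without overlap. Over all genes 1.11% (higher) and 0.96% (lower) were without overlap, so a count of 0 in these lists is near that share. A log2 fold change above 0 was found in 52.4% of all genes. The 3 tested thymus and lymph node genes (7 listed) were all above 0. Their median log2 fold change was 1.84 (rTIMP2 over HBSS), and 1.32 without rTIMP2 replicate 2. Of the 3, 2 had higher values at an unadjusted p under 0.05, against 6.15% of all genes. One of the 7 listed, Cd8a, is also in the T cell list, and the median has the sign of those of the lymphocyte and class II lists. Of 8 listed skeletal muscle genes 6 were tested. All 8 summed to 35.8 to 453 in rTIMP2 lungs and 44.6 to 29161 in HBSS lungs, with the top value in HBSS replicate 4. The 9 tested cardiac muscle genes had a median log2 fold change of 0.67 (rTIMP2 over HBSS), and of -0.43 without rTIMP2 replicate 2. Summed over all 10 listed members, replicate 2 came to 11968, within the tumour-free range of 5355 to 13368. Of 13 tested circadian clock genes none was without overlap, and their median was 0.27, or -0.10 without replicate 2. The 9 mitochondrially encoded genes had a median of -0.17.

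Stromal cells, alveolar macrophages, neutrophils and secreted signals gave no marker without overlap either, again near the share over all genes. The share of all genes above 0 was 52.4%. The 15 fibroblast and pericyte markers had a median of 0.91 (10 above 0), the 8 tested smooth muscle genes a median of 1.30 (8 above 0) and the 12 alveolar macrophage genes a median of 1.03. Without rTIMP2 replicate 2 these medians were 0.72 (11 above 0), 0.69 (6 above 0) and 0.90. Of 12 tested neutrophil genes 7 were above 0, at a median of 0.13, and the 25 tested chemokines and cytokines had a median of 0.36, with 0.02 and 0.55 without replicate 2. The 15 genes of epithelial-mesenchymal transition had a median of -0.10, and 0.13 without replicate 2.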
